A study of Mus musculus with 9 samples.

Results

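The immediate early genes described here are 10 of the 24321 genes in the table of expression levels, chosen by symbol as genes that respond to outside stimuli and to tissue dissociation: Fos, Fosb, Jun, Junb, Jund, Egr1, Ier2, Ier3, Atf3 and Zfp36. RNA-seq was performed on meningeal lymphatic endothelial cells (MLECs), the cells that line the lymphatic vessels of the dura, from mice with or without an intracranial tumor, to see how these cells respond to the tumor. Each of the 9 libraries was made from 10 sorted cells, with a protocol that the labels call Smart-seq2 and that labels and methods describe with poly(T) tailing of the cDNA, and the meninges of 6 mice were pooled for a sort. All mice were male and on the C57BL/6 background, were labelled as 10 weeks old and had been injected at 7 to 8 weeks of age. The 3 control libraries came from mice given PBS, the 3 GL261 libraries from mice given cells of the glioma line GL261 and the 3 B16 libraries from mice given cells of the melanoma line B16, taken, by the labels, about 3 weeks (GL261) and about 2 weeks (B16) after injection. The study's results give 2 weeks for both and its methods 2 to 3 weeks, so that whether the interval differs between the tumors is not settled, and the sample labels name the cisterna magna as the route where the study's methods name the space under the dura. The labels and the methods describe a sort on CD31, CD45 and LYVE-1 after warm collagenase digestion, and the study's results describe a sort on PDPN. GL261 and B16 together are called tumor-associated MLECs, and a library is named by its group and replicate number.

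Immediate early genes are transcribed within minutes of a stimulus, because the factors that switch them on are already present. These factors, such as SRF with its ternary complex partners and CREB, need only be phosphorylated, by MAP kinases or by other kinases. Many mRNAs of immediate early genes are also short-lived, so that the response ends quickly, partly through proteins that the same genes encode. In endothelial cells they respond to growth factors, cytokines, shear stress and injury, and enzymatic dissociation of tissue is known to induce them in many cell types.

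Levels are given as FPKM, the fragments of a gene relative to its length and to all mapped fragments of the library. It allows for gene length when genes are compared. Other differences between genes, such as in the amplification of the cDNA, are not corrected by it. Read counts are not among the values and library read totals were not used. As a stand-in, the depth of each library was judged from the number of genes listed above 0. This number was 7303, 8688 and 8152 in control libraries 1, 2 and 3. For GL261 it was 10777, 10852 and 9456, and for B16 it was 8736, 9258 and 9950. Every control library thus had fewer genes above 0 than every tumor-associated library (mean 8048 against 9838, two-sided exact permutation test over 84 divisions, p = 0.0238), and this difference cannot be told apart from the tumor. Differences between groups are in log2(FPKM + 1), a scale on which a low gene appears to change less than it does. They were tested by limma over 9955 genes, those that reached an FPKM of 1 in 3 or more libraries, with Benjamini-Hochberg adjustment over all of them and a threshold of 0.05, and each of the 10 immediate early genes is among them. Each library is RNA of several cells, so that fewer cells with a transcript and less of it per cell cannot be told apart.

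None of the 10 genes was listed at 0 in any library. Their summed level was between 2742 and 4586 FPKM in control libraries, between 2390 and 5309 in GL261 libraries and between 3954 and 6295 in B16 libraries, which is between 0.285% (GL261 1) and 0.829% (B16 1) of all FPKM in a library. The groups overlapped in this sum. Fos was the most abundant of the 10 in control MLECs, with a mean of 1035 ± 257 FPKM (SD, n = 3), followed by Egr1 with 863 ± 261 (SD, n = 3). The next in control MLECs were Junb with 471 ± 225, Ier2 with 459 ± 108.5 and Ier3 with 368 ± 84.7 FPKM (SD, n = 3 each). The means of Junb and Ier2 lay closer to each other than their SDs, as did those of Fos and Egr1. Those of Ier2 and Ier3 were further apart than the SD of Ier3, and Egr1 and Junb were further apart than either SD. Zfp36 followed with 170.2 ± 82.8 FPKM, Atf3 with 103.5 ± 49.9, Fosb with 87.3 ± 37.5, Jun with 76.0 ± 46.4 and Jund with 14.1 ± 17.4 (SD, n = 3 each), of which Atf3, Fosb and Jun lay within their SDs of each other. In tumor-associated MLECs the order was Fos with 1098 ± 356.5 FPKM, Ier3 with 876 ± 371.5, Junb with 831 ± 341, Ier2 with 500.2 ± 184, Zfp36 with 401 ± 96.4 and Egr1 with 346 ± 84.6 (SD, n = 6 each). Neighbours in this order lay within the larger of their SDs, and in B16 alone Junb (982 FPKM) stood above Ier3 (968 FPKM). Egr1 stood second among the 10 in the means of control MLECs and sixth in those of GL261 and of B16. Counted over all listed genes, Fos ranked between 67 and 264 in the 9 libraries, where 1 is the highest level, and Jund between 1753 and 6858.

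**Figure D1:**
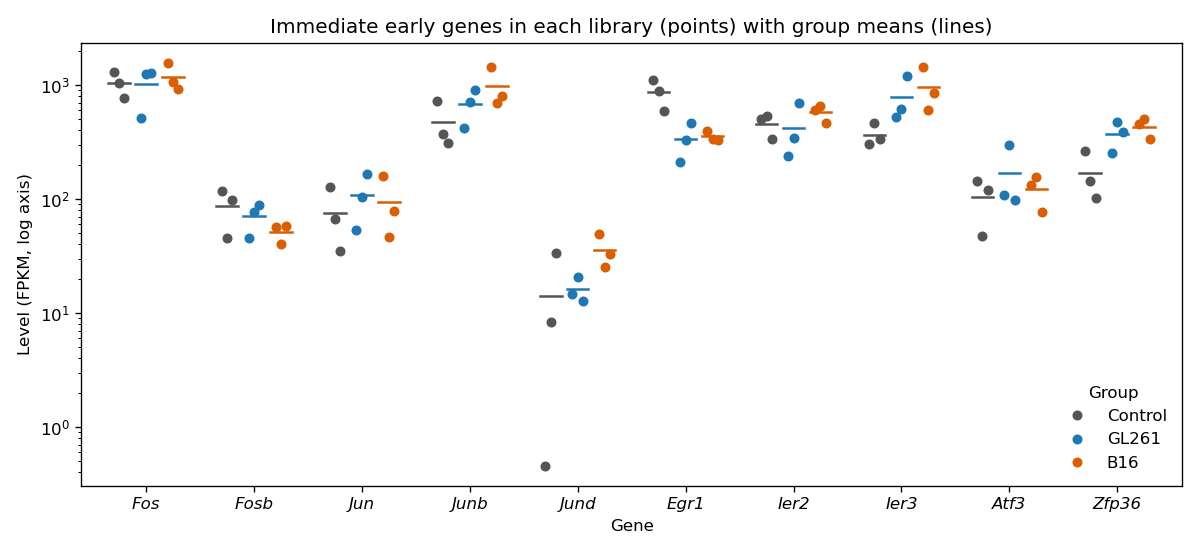
Level of each immediate early gene in FPKM (log axis) in the 3 control, 3 GL261 and 3 B16 libraries, with 1 point per library and a line at the group mean. For Egr1 the control libraries (591 to 1112) lie above all tumor-associated libraries (212 to 467.5), for Ier3 they lie below them, and for Fos and Ier2 the groups overlap.

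Egr1 encodes a zinc finger transcription factor that is induced through SRF and MAP kinases by growth factors and mechanical stress. Its level was 1112, 886.5 and 591 FPKM in control libraries 1, 2 and 3. It was 212, 331 and 467.5 FPKM in the GL261 libraries. It was 396, 339 and 330.2 FPKM in the B16 libraries. All 6 tumor-associated libraries were below all 3 control libraries, and the GL261 libraries spanned the B16 libraries. Egr1 fell with tumor: the log2 difference was -1.31 (standard error 0.29, 95% interval -1.93 to -0.69, limma's adjusted p = 0.0231). Against control the difference was -1.38 for GL261 (standard error 0.33, limma's adjusted p = 0.0438) and -1.24 for B16 (standard error 0.33, limma's adjusted p = 0.0833), and only the former passed the threshold. The difference between the tumors themselves was -0.14 (95% interval -0.87 to 0.58). The adjusted p of Egr1 in tumor-associated against control MLECs was 0.0984 without control 1 and 0.0632 without control 2, and stayed under 0.05 without any other single library. Over 21 alternative settings it ranged from 0.00716 to 0.534. The call in GL261 alone was lost in 13 of 20 settings (adjusted p from 0.0183 to 0.877), among them the omission of control 1 (0.124), control 2 (0.0957), GL261 1 (0.172), GL261 2 (0.135) or any B16 library (0.0556 to 0.0651). With the number of genes above 0 as a covariate, which separates the groups, the difference over both tumors was -0.76 (adjusted p = 0.534).

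Zfp36 encodes tristetraprolin, a protein that binds AU-rich elements in short-lived mRNAs and promotes their decay. Its level was 262, 145.4 and 102.6 FPKM in the control libraries. It was 252, 474 and 386 FPKM in the GL261 libraries. It was 452, 509 and 334 FPKM in the B16 libraries. All 3 B16 libraries were above all controls, and 1 GL261 library (GL261 1) was slightly below control 1, so that GL261 and control overlapped. Zfp36 rose with tumor: the log2 difference was 1.30 (standard error 0.33, 95% interval 0.58 to 2.02, limma's adjusted p = 0.0468). The difference from control was 1.18 for GL261 (limma's adjusted p = 0.133) and 1.43 for B16 (limma's adjusted p = 0.0863), and neither passed the threshold alone. The call in tumor-associated MLECs was close to the threshold: its adjusted p was 0.0204 without control 1, 0.0401 without GL261 1 and between 0.0686 and 0.15 without any other single library, and 0.175 with the number of genes above 0 as a covariate, where the difference itself was 1.87. Over the alternative settings the call was lost in 15 of 21, among them FPKM rescaled to the same sum in each library (adjusted p = 0.114).

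Ier3 encodes a small stress-inducible protein (also named IEX-1) that acts on cell survival and on ERK signaling. Its level was 301.5, 463 and 339 FPKM in the control libraries. It was 525, 617 and 1209 FPKM in the GL261 libraries. It was 1438, 606 and 859 FPKM in the B16 libraries. Every tumor-associated library was above every control library. The log2 difference was 1.17 (standard error 0.33, 95% interval 0.46 to 1.88), and it missed the threshold over all genes (limma's adjusted p = 0.0694). It was 1.02 for GL261 (limma's adjusted p = 0.187) and 1.33 for B16 (limma's adjusted p = 0.104) against control.

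Fos and Fosb encode the Fos partners of AP-1, a transcription factor that is a dimer of a Fos and a Jun protein. Fos was listed at 1292, 1034 and 778 FPKM in the control libraries, at 519, 1242 and 1281 in the GL261 libraries and at 1560, 1066 and 919 in the B16 libraries. Its lowest level was in GL261 1 and its highest in B16 1, and all groups overlapped. The log2 difference of Fos between tumor-associated and control MLECs was 0.04 (95% interval -0.63 to 0.70, limma's adjusted p = 0.962), and it was -0.19 with FPKM rescaled to the same sum, so that it has no stable sign. Fosb was listed at 118.5, 45.8 and 97.7 FPKM in the control libraries, at 45.6, 77.8 and 88.5 in the GL261 libraries and at 56.7, 40.0 and 57.5 in the B16 libraries. Control 2 lay among the lowest tumor-associated libraries in Fosb, and the groups overlapped (log2 difference -0.46, 95% interval -1.36 to 0.45, limma's adjusted p = 0.591), with -0.19 without control 1 and -0.86 without control 2. Fos made up between 88.8% and 96.5% of the FPKM of Fos and Fosb in every library.

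Jun, Junb and Jund encode the Jun partners of AP-1, of which JunB and JunD can restrain the activity of c-Jun on some promoters. Junb was listed at 729, 375 and 310.2 FPKM in the control libraries, at 421, 713 and 908 in the GL261 libraries and at 1444, 699 and 803 in the B16 libraries. Control 1 lay above the lowest library of GL261 and the lowest of B16, and the groups overlapped. The log2 difference of Junb was 0.82 (95% interval 0.05 to 1.60, limma's adjusted p = 0.24) over both tumors and 1.08 (95% interval 0.21 to 1.95, limma's adjusted p = 0.221) for B16. Jun was listed at 126.4, 66.3 and 35.2 FPKM in the control libraries, at 53.9, 104.3 and 167 in the GL261 libraries and at 158.4, 46.3 and 78.6 in the B16 libraries. Each group held both high and low libraries of Jun, and its log2 difference was 0.43 (95% interval -0.68 to 1.55, limma's adjusted p = 0.701), with -0.02 without control 3 and 0.89 without control 1. Jund, the member that is usually expressed without a stimulus, was listed at 0.459, 8.28 and 33.7 FPKM in the control libraries, at 14.6, 20.9 and 12.9 in the GL261 libraries and at 49.6, 25.6 and 33.0 in the B16 libraries. The controls reached from the lowest level of all 9 libraries to above every GL261 library, and the groups overlapped. The log2 difference of Jund had the widest interval of the 10, at 1.66 (95% interval -0.18 to 3.50, limma's adjusted p = 0.317), and it was 0.45 without control 1 and 2.74 without control 3. Junb made up between 81.8% and 85.2% of the FPKM of Jun, Junb and Jund in control libraries, between 83.5% and 86.0% in GL261 libraries and between 87.4% and 90.7% in B16 libraries. The B16 libraries were the highest in this share, and the GL261 and control libraries overlapped.

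Ier2 encodes a nuclear protein of the early growth response, and Atf3 encodes a bZIP factor of the stress response that can repress its own promoter and those of other early genes. Ier2 was listed at 500.4, 541 and 336 FPKM in the control libraries, at 238, 342 and 692 in the GL261 libraries and at 608, 659.5 and 462 in the B16 libraries. Both extremes of Ier2 were GL261 libraries, and the groups overlapped (log2 difference 0.06, 95% interval -0.69 to 0.80, limma's adjusted p = 0.952), with a difference of -0.17 after rescaling to the same sum. Atf3 was listed at 143.4, 47.6 and 119.5 FPKM in the control libraries, at 109.4, 299 and 97.4 in the GL261 libraries and at 132.7, 157.3 and 77.5 in the B16 libraries. A single library, GL261 2, was above all others in Atf3, and the remaining libraries overlapped (log2 difference 0.49, 95% interval -0.52 to 1.49, limma's adjusted p = 0.612). Without control 2, the lowest library in Atf3, the difference was 0.01, without GL261 2 it was 0.25, and without control 1 it was 0.79.

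**Figure D2:**
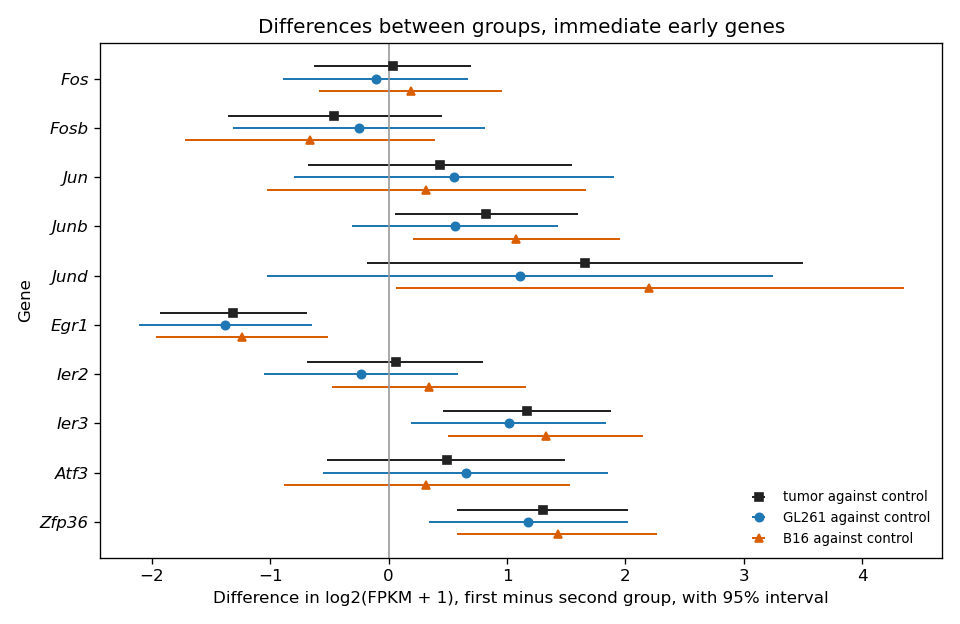
Difference in log2(FPKM + 1) of each immediate early gene for tumor-associated MLECs (squares), GL261 (circles) and B16 (triangles) against the same 3 control libraries, with the 95% interval from limma. Egr1 lies below 0 (-1.31 for both tumors together), Zfp36 (1.30) and Ier3 (1.17) lie above it, and the intervals of Fos, Fosb, Jun, Ier2 and Atf3 include 0 in all 3 comparisons.

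In tumor-associated against control MLECs, 2 of the 10 genes passed the threshold, where 3.93% of the 9955 genes tested did (391 genes). Of the 10, Zfp36 was called higher, where 2.9% of all genes were, and Egr1 was called lower, where 1.02% were. An unadjusted p under 0.05 was found for 4 of the 10, beside 19% of all genes tested. The groups did not overlap for 2 of the 10 (Egr1 and Ier3), where 10.5% of all genes tested did not overlap. The median log2 difference of the 10 was 0.46, beside 0.20 over all genes tested. Rescaling FPKM to the same sum moved the median over all genes to 0.05, and relative to the median of all genes the differences were -1.51 for Egr1, 1.10 for Zfp36 and 0.97 for Ier3 as deposited and -1.59, 1.02 and 0.89 after rescaling. Relative to it Fos was at -0.16 and Ier2 at -0.15 as deposited. Of the 391 calls, 73.9% were higher in tumor-associated MLECs, a share that was 63.5% after rescaling, 59.4% after quantile normalization and 58.6% with a pseudocount of 10. The number of the 10 that passed ranged from 0 to 3 over the alternative settings. Settings in which it was 0 include those without control 2, without the low-level filter, with limma's variance model without a trend, and with the number of genes above 0 as a covariate, with which 13 genes of the whole table passed.

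In GL261 against control, 1 of the 10 genes passed (Egr1), where 3.49% of all genes tested did, and 3 of the 10 had an unadjusted p under 0.05, beside 16.9%. Of the GL261 calls over all genes, 74.1% were higher, and 61.1% after rescaling and 59.9% after quantile normalization. For GL261, 2 of the 10 did not overlap (Egr1 and Ier3), where 22.5% of all genes did not. In B16 against control, limma called 0 of the 10, where 2.11% of all genes passed, and 5 of the 10 had an unadjusted p under 0.05, beside 15% of all genes tested. For Egr1, Ier3 and Zfp36 the B16 and control libraries did not overlap, where 17.2% of all genes did not. Both comparisons use the same 3 control libraries, so that a shared direction is not independent. For GL261, the share of the 10 that did not overlap was near that of all genes.

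Between GL261 and B16, limma called 0 of the 10, with 0 at an unadjusted p under 0.05, where 0.01% of all genes tested passed (1 gene) and 5.5% had an unadjusted p under 0.05. That gene, named after its values were seen, was B2m (log2 difference 2.37, standard error 0.18, limma's adjusted p = 0.000200). Jund was the only one of the 10 whose groups did not overlap, where 13.8% of all genes did not: its 3 GL261 libraries (12.9 to 20.9 FPKM) were below its 3 B16 libraries (25.6 to 49.6 FPKM). Its log2 difference was -1.09 (95% interval -3.24 to 1.05, limma's adjusted p = 1). The largest difference the other way was that of Fosb, at 0.42 (95% interval -0.64 to 1.47). For each of the 10 but Egr1, the 95% interval reaches past 1 or -1 on the log2 scale, so that differences of that size between the tumors cannot be told from none.

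Ratios between genes within a library do not depend on how libraries are scaled to each other, and they were computed after the levels had been seen. Egr1, Zfp36 and Ier3 already differed between the groups by level, so that their ratios describe the same differences again. The share of all genes whose ratio to Fos does not overlap was not computed, so that how unusual a lack of overlap is was not tested. The ratio of Egr1 to Fos was 0.861, 0.857 and 0.76 in the control libraries, 0.408, 0.267 and 0.365 in the GL261 libraries and 0.254, 0.318 and 0.359 in the B16 libraries. No tumor-associated library came near a control library in this ratio. The ratio of Zfp36 to Egr1 was 0.236, 0.164 and 0.174 in the control libraries, and it lay between 0.826 and 1.5 in the tumor-associated libraries. It sets the gene called higher over the gene called lower, so that its separation of the groups restates their calls and is no further evidence. The ratio of Ier3 to Fos was between 0.233 and 0.448 in control and between 0.497 and 1.01 in tumor-associated libraries, and that of Zfp36 to Fos between 0.132 and 0.203 in control and between 0.29 and 0.485 in tumor-associated libraries, without overlap in either. The ratio of Ier2 to Fos was between 0.387 and 0.523 in control and between 0.275 and 0.619 in tumor-associated libraries, and overlapped.

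Libraries of a group differed from each other across the 10 genes together. In GL261 1, all 10 were below their GL261 mean on the log2 scale, with a mean deviation of -0.57, while the median deviation over all genes tested in that library was 0.05. In B16 1, all 10 were above their B16 mean, with a mean deviation of 0.38 beside a median of -0.03 over all genes. GL261 2 and GL261 3 each had 8 of 10 above the group mean, beside 52.8% and 46.9% of all genes. Control 1 had 8 of 10 above the control mean (41.7% of all genes), control 2 had 5 (51.3%) and control 3 had 3 (48.3%). Fewer were above the B16 mean in B16 2, with 3 of 10 (48.8% of all genes), and in B16 3, with 1 of 10 (55.3%). The SD within groups, pooled over the 3 groups on the log2 scale, had a median of 0.54 over the 10 genes, beside 1.07 over all genes tested and 0.46 over the 984 genes with a mean FPKM of at least 100. Egr1 was the least variable of the 10 within groups (SD 0.43), and Jund (1.37), Jun (0.87) and Atf3 (0.77) were the most variable.

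The genes with the most similar profile were found by the root mean square difference of log2(FPKM + 1), each gene centred on its own mean, over the 9 libraries. For Fos these were Pak1ip1 (0.24), Rnps1 (0.27), Lamtor1, Lrrc8a and Rhob (0.30 each). Of the other 9 immediate early genes, Ier2 was closest to Fos (0.32, at rank 14 of the genes tested) and Junb next (0.45, at rank 108). For Jun they were Lin54 (0.28), Adgrg3 (0.33), Sestd1 (0.34), Znrf3 (0.36) and Paics (0.37), and Junb stood at rank 12 (0.45) and Fos at rank 28 (0.51). For Egr1 they were Zfhx3 (0.25), Tnfaip8l1 (0.27), Igf1r (0.27), Ndufv1 (0.29) and Gbas (0.32). Some of these genes were low: mean FPKM over the 9 libraries was 1.92 for Lin54, 1.89 for Sestd1 and 0.794 for Znrf3, beside 92.9 for Jun. It was 1.775 for Zfhx3 and 2.23 for Igf1r, beside 518 for Egr1. The scale makes low genes appear to change less, so that nothing is read from the likeness of these 5. The immediate early gene closest to Egr1 was Fosb, at rank 362 (0.63), and Ier3 (1.23) and Zfp36 (1.26) were at ranks 4153 and 4341.

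In the GENCODE M1 annotation of mm9, they spanned between 1240 bases (Ier3) and 13045 bases (Atf3), with a median of 3034, beside 22694 for the 9155 genes tested that have 1 annotated position. A span of up to 4000 bases was found for 8 of the 10, and for 9.43% of those genes. The 10 had a median of 2 exons at most per transcript, beside 9, and Junb and Ier2 had 1 exon. Zfp36 lies on chromosome 7 from 29161803 to 29164274 on the minus strand, and Ier3 on chromosome 17 from 35958629 to 35959868 on the plus strand. Ier2 and Junb lie on the same strand of chromosome 8 with 314059 bases between them. Jun, Jund and Egr1 each overlap an annotated gene on the opposite strand (BC042782, Gm11175 and Gm17507), and the library protocol as described does not keep the strand, so that reads of such a pair cannot be told apart.

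AU-rich elements, through which tristetraprolin acts, are built on the letters ATTTA in the 3′ untranslated region. In the longest annotated region of each gene, 5 of the 10 held at least 3 copies, beside 36.9% of the 8988 genes tested that have such a region, and the density had a median of 2.89 copies per kilobase in the 10, beside 1.24. Ier3 was the densest, with 5 copies in 613 bases, followed by Fos with 4 in 815 bases. Zfp36 held 3 copies in 774 bases, Egr1 held 2 in 1216 bases and Ier2 held 0 in 755 bases. The longer element TTATTTATT was found in Fos and Zfp36, and in 7.17% of the genes. A count of letters does not measure decay.

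Promoters were searched for elements of factors that are known to act on immediate early genes. RefSeq promoters (GRCm38.p6, 250 bases before to 50 after each gene start) were on hand for 8 of the 10, all except Egr1 and Ier2, among 32851 promoters, and both strands were searched. The cyclic AMP element TGACGTCA was found in 0 of the 8 (1.79% of all promoters) and the AP-1 element TGANTCA in 0 of the 8 (7.81%). The Egr element GCGNGGGCG was found in Fosb and Zfp36 (5.55%), and the CArG box, to which SRF binds, in Zfp36 (1.63%). TATAAA was found in Fos and Junb (13.6%). In Fos it begins at position -33 relative to the gene start, and in Junb at position 1, within the gene. The shorter cyclic AMP element TGACG, which lies within TGACGTCA and was added after the other searches had been seen, was found in Fos, Fosb, Junb and Atf3 (20.8%).

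Zfp36 was called higher with tumor, close to the threshold, and Fos was the most abundant of the 10 and had no stable direction. Their promoters are shown because they hold different elements. Each is given on its own strand from 150 bases before the RefSeq gene start up to the annotated gene, and was located on mm9 by an exact match at chr7:29164275-29164397 (minus strand, Zfp36) and chr12:86814690-86814839 (plus strand, Fos). Capitals mark, in this order, the Egr element and the CArG box in Zfp36, and TGACG at both its places and TATAAA in Fos.
Zfp36: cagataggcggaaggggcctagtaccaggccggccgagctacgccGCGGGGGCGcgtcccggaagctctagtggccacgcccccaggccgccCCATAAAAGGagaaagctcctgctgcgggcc
Fos: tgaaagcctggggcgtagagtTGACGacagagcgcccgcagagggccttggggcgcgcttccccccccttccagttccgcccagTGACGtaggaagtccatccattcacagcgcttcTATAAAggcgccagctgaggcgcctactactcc
The Egr element of Zfp36 begins at position -105 and the CArG box at -58 relative to the gene start, and in Fos TGACG begins at -129 and -66 and TATAAA at -33. A match of letters says nothing of whether a factor was bound in these cells, and other windows were not searched.

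Of the 6 lists of related genes, the upstream kinases and transcription factors come first in the pathway. Of these, 1 of the 21 tested was called higher in tumor-associated MLECs and 0 lower, where 2.9% of all genes tested were called higher. The median log2 difference was -0.08, beside 0.20 over all genes. In each tumor alone the median was positive, at 0.16 for GL261 (0.23 over all genes) and 0.42 for B16 (0.20 over all genes). The gene called was Map2k3, a kinase that activates p38. Map2k3 was listed at 35.0, 19.0 and 1.28 FPKM in control libraries and between 47.1 and 143.5 in tumor-associated libraries (log2 difference 2.95, limma's adjusted p = 0.0411). All its tumor-associated libraries were above all controls, and its adjusted p ranged from 0.0185 to 0.216 over the alternatives, with 0.0836 and a difference of 1.76 without control 3, 0.0553 to 0.0856 without any 1 tumor-associated library, and under 0.05 without control 1 or 2. Srf, which encodes the factor that binds CArG boxes, was listed at 0 in all 3 controls and at up to 8.49 FPKM in tumor-associated libraries, all of them above 0. It entered the test through the tumor-associated libraries alone, so that it is given by levels only. Mkl2, a coactivator of SRF (log2 difference 2.65, limma's adjusted p = 0.135), and Rps6ka1, a kinase downstream of ERK (-1.99, limma's adjusted p = 0.179), did not pass.

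Of the other AP-1 and bZIP genes, limma called 0 of the 10 tested, and 3 had an unadjusted p under 0.05, beside 19% of all genes tested. Batf is among these 3 and entered the test through the tumor-associated libraries alone, so that this count leans upward and nothing is read from it. Crem, which encodes a cyclic AMP response factor and its inducible repressor, had the smallest p (log2 difference 2.89, limma's adjusted p = 0.0897), with 35.4, 0 and 5.16 FPKM in control libraries and between 26.2 and 65.2 in tumor-associated ones. Its difference was 4.18 without control 1 (adjusted p = 0.00821, which passes) and 1.59 without control 2 (adjusted p = 0.225). Fosl2, a Fos relative, had a difference of 1.59 (limma's adjusted p = 0.207). Batf was listed at 0 in all controls and in 2 of the 3 B16 libraries, and Batf2 at 0 in 2 controls and 2 B16 libraries. Of the other immediate early genes, 1 of 20 tested was called higher and 0 lower, near the 2.9% of all genes tested that were called higher, and the median log2 difference was 0.28, beside 0.20: Bhlhe40, a transcriptional repressor, was listed at 2.53, 34.0 and 22.0 FPKM in control libraries and between 70.4 and 172.5 in tumor-associated libraries (log2 difference 2.86, limma's adjusted p = 0.0227). The groups did not overlap, and the adjusted p stayed under 0.05 without any single library, with a difference of 1.86 without control 1 (adjusted p 0.426 with the number of genes above 0 as a covariate, the highest of its alternatives). Csrnp1 (2.21), Ctgf (1.44) and Klf10 (1.23), in log2 differences, had adjusted p values of 0.179, 0.225 and 0.21 in limma, and without control 1 the difference of Csrnp1 was 1.40 and that of Ctgf was above 2 (adjusted p = 0.076).

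Of the feedback regulators, which end the response, 2 of the 19 tested were called higher in tumor-associated MLECs and 0 lower, where 2.9% of all genes tested were called higher. Their log2 differences had a median of 0.59, beside 0.20 over all genes, and 8 of the 19 were negative. Nfkbia, which encodes the NF-κB inhibitor IκBα, was listed at 256, 437 and 309 FPKM in control libraries and between 546 and 962 in tumor-associated libraries. It did not overlap between the groups (log2 difference 1.11, limma's adjusted p = 0.0346). Tnfaip3, which encodes the NF-κB inhibitor A20, was listed at 0 in all 3 controls and between 3.74 and 36.1 FPKM in every other library. It entered the test through the tumor-associated libraries alone, as did Pim1, so that it is given by levels only, and the count called and the median over the list lean upward. The call of Nfkbia lay near the threshold: over the alternatives its adjusted p ranged from 0.0252 to 0.377, with 0.124 without control 1, 0.0925 without control 3, 0.0522 without B16 1 and 0.0614 to 0.0678 without any 1 GL261 library. In GL261, limma called Nfkbia alone of the 19 (log2 difference 1.24, adjusted p = 0.0465), and the call was lost in 15 of 20 alternatives (adjusted p up to 0.487). Trib1, a pseudokinase (log2 difference 2.55, limma's adjusted p = 0.0931), and Dusp2, a MAP kinase phosphatase (limma's adjusted p = 0.167), did not pass.

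Of the inducible targets, 3 of the 16 tested were called higher in tumor-associated MLECs and 0 lower, where 2.9% of all genes tested were called higher. Some of them, such as Timp1, were listed at 0 in all controls and entered the test through the tumor-associated libraries alone, so that the count leans upward and nothing is read from it. Selp, which encodes P-selectin, was called (log2 difference 3.22, limma's adjusted p = 0.0443), as was Plaur, the urokinase receptor (4.17, limma's adjusted p = 0.032). Control 2 held 34.7 FPKM of Selp, more than B16 2 with 24.1, so that its groups overlapped. The calls of Selp and Plaur were lost in most alternatives (adjusted p up to 0.564 and 0.514), among them the omission of any 1 library but control 2 for Selp (0.0507 to 0.149), and of control 3, any B16 library, GL261 1 or GL261 2 for Plaur (0.0559 to 0.0651). Without control 1 the difference of Plaur was 2.43, and without control 2 it was 5.56. Timp1, a metalloproteinase inhibitor, was listed at 0 in all controls and between 15.1 and 136.6 FPKM in tumor-associated libraries, and is given by levels only. Plau, which encodes urokinase, was at 28.0, 41.7 and 57.1 FPKM in control and at 6.18, 5.53 and 0.961 in GL261 libraries, without overlap. Plau was called lower in GL261 (log2 difference -3.20, limma's adjusted p = 0.0308). The call was lost in 8 of 20 alternatives (adjusted p up to 0.368), among them the omission of control 2, control 3, B16 3 or any 1 GL261 library (0.0512 to 0.0883). In B16 libraries 1, 2 and 3 it was at 27.8, 14.2 and 24.2 FPKM, also below all controls, and did not pass (log2 difference -0.90, limma's adjusted p = 0.602). Of the 18 targets, 6 (Cxcl1, Icam1, Hbegf, Edn1, Plaur and Timp1) are among the genes that the study picked from these libraries, as is Crem, so that their direction is not independent evidence.

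The heat shock genes, which respond to dissociation along with the immediate early genes, showed 0 calls by limma among 12 tested, with 2 at an unadjusted p under 0.05, beside 19% of all genes. Their summed level was 3620, 2267 and 2568 FPKM in control libraries, 2794, 3241 and 3409 for GL261 and 3241, 3425 and 3236 for B16, with Hspa8 the most abundant in each. Control 1 was the highest of all libraries in this sum. The log2 differences of Hsph1 (2.30), Hspa8 (0.51), Dnajb1 (1.19) and Hspe1 (0.66) did not pass (limma's adjusted p between 0.118 and 0.355). Without control 2 the difference of Hsph1 was 3.05 (adjusted p = 0.0454). The controls left there, at 0.187 and 0 FPKM, did not reach FPKM 1. Hsph1 then entered the test through the tumor-associated libraries alone, so that nothing is read from this pass. Dnajb1 was at 0.41 without control 3 and 1.87 without control 1.

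Other genes moved with the groups beside the immediate early genes. Among 12 housekeeping genes, Actb (log2 difference 0.74), Gapdh (1.21) and Tbp (3.44) were called higher with tumor (limma's adjusted p = 0.0181, 0.00672 and 0.0101), where 2.9% of all genes were. The call of Actb was lost in 5 of 21 alternatives (adjusted p up to 0.451, and 0.105 without control 1), that of Gapdh in 2 of 21 (up to 0.273) and that of Tbp in 1 of 20 (0.276). Tbp was listed at 0 in 2 controls, so that a level listed at 0 does not show absence. Prox1, Flt4 and Lyve1, which define lymphatic endothelium, were above 0 in all 9 libraries. Prox1 was at 20.9 to 42.2 FPKM in control and at 1.87 to 16.5 in tumor-associated libraries. Flt4 was at 174 to 220 FPKM in control and at 40.1 to 106.3 in tumor-associated libraries, and neither gene overlapped. Lyve1 overlapped, at 974 to 1705 and 628 to 1895 FPKM. Of the 8 lymphatic endothelial markers tested, 4 (Flt4, Ccl21c, Reln and Mmrn1) were called lower, where 1.02% of all genes were. The 9 lymphatic markers summed to 10350, 16653 and 12335 FPKM in control libraries, to 1850, 943.5 and 2942 in GL261 and to 6720, 2129 and 3932 in B16 libraries, with Ccl21c, which has near-identical copies, the most abundant in 7 of the 9. The 10 blood endothelial markers summed to 843, 1788 and 973 FPKM in control libraries, to 15403, 13494 and 7091 in GL261 and to 5137, 7769 and 7355 in B16 libraries, and 9 of the 10 were called higher, where 2.9% of all genes were, among them Ly6c1 and Flt1, which reached FPKM 1 in no control and so entered the test through the tumor-associated libraries alone. Plvap was the most abundant of them in all control and B16 libraries, and Ly6c1 was listed at 0 in all controls. Of these 10, the study picked 4 from these libraries. The 5 pan-endothelial markers were above 0 in all libraries and summed to between 557.5 and 779 FPKM in control and between 944 and 1343 in tumor-associated libraries, with Eng or Pecam1 the most abundant. The part of this shift in the levels of Egr1, Zfp36 and Ier3 was not tested.

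Markers of cells outside the endothelium were read as well, and some moved with the groups. Of 6 mural cell markers, 4 were above 0 in control 1, which had 505 FPKM of Acta2 and a summed level of 567, and the sum in any other library was at most 11.4. Without control 1, the difference of Egr1 was -1.10 and that of Zfp36 was 1.67. Of 6 fibroblast markers, Dcn was at 21.8, 44.9 and 15.7 FPKM in control libraries and at most 0.146 in tumor-associated libraries. It was picked by the study from these libraries and entered the test through the controls alone, so that its difference is given by levels only. The list summed to between 16.2 and 49.0 FPKM in controls and to at most 3.85 in the others. Of 12 leukocyte markers, Ptprc, which encodes CD45, was at 0 in all 9 libraries, and the list summed to 267, 459 and 522 FPKM in control libraries, 141, 449 and 35.9 in GL261 and 116, 300.1 and 32.8 in B16 libraries, with Fcer1g the most abundant in all but GL261 2, where Lyz2 was. Of 6 melanocyte markers, the sum was at most 4.07 FPKM in any library, and of 8 glial markers it was at most 12.3 outside the B16 libraries, where S100b had 37.0, 36.5 and 25.3 FPKM, and at most 3.00 elsewhere. The part of these cells in the levels of the immediate early genes was not tested.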

How the data were processed

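The authors aligned the reads to mm9 with TopHat2 2.0.12 and computed FPKM with Cufflinks 2.2.1, per the submitters' processing notes and methods, and deposited 1 FPKM per gene symbol and library, without counts. Library read totals were not used here. The immediate early genes and all gene lists were chosen with earlier results of these data known.

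From the deposited FPKM, log2(FPKM + 1) was fitted with limma 3.58.1 in R 4.3.3 (lmFit, eBayes with a trend) on genes that reached FPKM 1 in 3 or more libraries. GL261 and B16 were joined as 1 group for tumor-associated against control MLECs, as in the study, and 3 groups were fitted for the other comparisons. The fit was tested on simulated data. A fold on this scale understates the change of low genes. From each list were named the genes called in any comparison and, where under 4 were called, those of smallest p in tumor against control up to 4; all 10 immediate early genes, the 5 genes most like Fos, Jun and Egr1, and marker and housekeeping genes were named besides. Alternatives were other pseudocounts, scalings, filters, variance models, 3 groups for the joined comparison, a term for replicate number, a covariate for genes above 0, a 0.10 threshold and leaving out each library. Python 3.11.15 with pandas 2.3.3, numpy 2.4.6 and matplotlib 3.10.9 gave the descriptive values and the plots.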

Additional observations from a re-analysis of the deposited data

How the results depend on the processing

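The tests of tumor against control were recomputed in up to 21 alternatives (12 other settings, and without each of the 9 libraries), those of the other comparisons in up to 20, and groups without overlap only without each library compared. The 32 differences of the immediate early genes, with only Fosb and Jund between the tumors, gave 650 values. Of these, 582 kept their direction and side of the threshold, 34 no longer passed it, 5 newly passed it and 29 changed sign. Most of the 32 had not passed and could lose no call. The 34 fall on Egr1 in tumor (6 of 21) and GL261 (13 of 20) and on Zfp36 in tumor (15 of 21). Another filter, variance model or threshold, or the replicate block, leaves the difference itself unchanged, so its direction was fixed there. The 31 differences of other named genes gave 641 values: 531 were the same, 103 no longer passed, 5 newly passed and 2 changed sign. A sign that changed belonged to a difference that had not passed, and the cause was not tested. The number of genes above 0 was at most 8688 in control and at least 8736 in tumor-associated libraries, and it also varied within each group. The covariate and the tumor are thus only partly distinct, and to which of them the lost calls belong was not tested. The read depth of the libraries was not used, which limits what a level of 0 means. With 3 controls, 1 library can decide a call.

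In tumor against control, 391 genes were called: 254 with no filter, 13 with the number of genes above 0 as a covariate, 707 at an adjusted p under 0.10, and 245 to 444 when 1 library was left out. Of the immediate early genes, 2 were called: 1 with a pseudocount of 0.1, with FPKM rescaled to the same sum, with quantile normalization and with 3 groups, 0 with no filter, with eBayes without a trend, with the replicate block and with the covariate, and 0 to 2 when 1 library was left out. With the replicate block limma's adjusted p was 0.0514 for Egr1 and 0.0682 for Zfp36. Libraries with the same number correlated between -0.03 and 0.04, and those with different numbers between -0.03 and 0.05. No pairing by number was seen, which does not exclude that same-numbered libraries were handled together. Groups without overlap numbered 2, and 2 to 4 when 1 library was left out. Fos was at -0.19 rescaled, -0.30 with quantile normalization and -0.15 to 0.24 when 1 library was left out. Ier2 was at -0.17, -0.24 and -0.15 to 0.25 in the same settings, and Jun at -0.02 to 0.89 when 1 library was left out. With the covariate, Batf2 was at -1.35 and Hspe1 at -0.23.

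In GL261 against control, 347 genes were called: 218 with no filter, 230 with the replicate block, 6 with the covariate, 569 at an adjusted p under 0.10, and 105 to 363 when 1 library was left out. Of the immediate early genes, 1 was called: 0 with a pseudocount of 0.1, median-of-ratios scaling, no filter, eBayes without a trend, the replicate block and the covariate, and 0 to 1 when 1 library was left out. Groups without overlap numbered 2, and 2 to 4 when 1 library was left out. With the covariate, Fos was at 0.91, Fosb at 0.80, Jund at -0.67 and Ier2 at 0.85. When 1 library was left out, Fos was at -0.33 to 0.32, Fosb at -0.65 to 0.03, Jund at -0.10 to 2.19 and Ier2 at -0.65 to 0.11.

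In B16 against control, 210 genes were called: 135 with no filter, 17 with the covariate, 420 at an adjusted p under 0.10, and 69 to 274 when 1 library was left out. Of the immediate early genes, 0 were called by limma, with 5 at an unadjusted p under 0.05: 1 with quantile normalization (Egr1, adjusted p 0.0441), 2 at an adjusted p under 0.10, and 0 to 1 when 1 library was left out (Zfp36 without control 1, adjusted p 0.0335). Groups without overlap numbered 3, and 3 to 4 when 1 library was left out. Fos was at -0.05 with quantile normalization. When 1 library was left out, Fos was at -0.03 to 0.36, Jun at -0.14 to 0.77 and Atf3 at -0.16 to 0.63.

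Between GL261 and B16, 1 gene was called: 4 with a pseudocount of 10, 2 with quantile normalization, 6 with eBayes without a trend, 2 at an adjusted p under 0.10, and 1 to 4 when 1 library was left out. Of the immediate early genes, limma called 0 in each setting, with 0 at an unadjusted p under 0.05 as deposited. Groups without overlap numbered 1, and 1 to 2 when 1 library was left out.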
